A study of Mus musculus with 8 samples.

Results

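Muc1, Muc4, Muc13 and Muc20, the transmembrane mucins, were compared between small intestinal (SI) and colonic (COL) crypts. They are 4 of the 45706 genes counted in both tables of wild-type crypts, and all 4 were found by symbol and passed the filter on low counts. The 8 RNA-Seq libraries came from 4 wild-type C57BL/6N donor mice, with 1 SI and 1 COL library per mouse. Mice 1 and 5 were female and mice 2 and 3 male, and their age is not given in the sources used here. The labels give no transgene and no treatment for these mice. RNA was taken directly after crypts had been released with EDTA, so each library is a bulk mixture of the cells of such a preparation. In bulk libraries, fewer cells of a type and less RNA per cell cannot be told apart.

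Transmembrane mucins stand on the apical surface of epithelial cells. Their usual build is a long extracellular part, 1 membrane-spanning stretch and a cytoplasmic tail. The extracellular part is rich in serine, threonine and proline and densely covered with O-linked glycans. They form the glycocalyx over the microvilli, underneath the gel of secreted mucin, and several of them bind growth factor receptors. MUC13 is carried by enterocytes and goblet cells. MUC4 has EGF-like domains and binds the receptor ERBB2. The tail of MUC1 binds beta-catenin, GRB2 and SRC family kinases, and MUC20 was described as a partner of the receptor MET.

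The coding sequences of the 4 genes shared the composition of mucins. Serine, threonine and proline codons made up 44.1% of the 631 codons of Muc1, 44.8% of the 3470 of Muc4, 38% of the 573 of Muc13 and 43.5% of the 688 of Muc20, against a median of 18.7% over 21503 protein-coding genes. At least 99.7% of those genes had a lower share. The most hydrophobic stretch of 19 codons beyond the signal peptide, scored by mean Kyte-Doolittle hydropathy, reached 3.29 in Muc1, 3.02 in Muc13 and 2.59 in Muc4, but 1.39 in Muc20. Behind it followed 76 codons in Muc1, 67 in Muc13 and 19 in Muc4, the stretch that would hold the cytoplasmic tail. For Muc20 the scan gave no clear membrane-spanning stretch, so no tail is given.

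The repeats of Muc13 and Muc4 are shown because tandem repeats are a hallmark of mucin genes, and because a read inside a repeat can have several positions. In the coding sequence of Muc13, 4 units of 81 bases were cut one after another from base 7 to base 330. The second differed from the first in 32 bases, most of them in its front part, so unit 1 was only in part a copy. The third differed from the second in 3 bases, and the fourth was identical to the third. Capitals mark the bases that differ from the unit before. The sequences are from the GENCODE vM21 transcripts.
Muc13 unit 1: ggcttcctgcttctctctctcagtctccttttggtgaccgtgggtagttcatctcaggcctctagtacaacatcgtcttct
Muc13 unit 2: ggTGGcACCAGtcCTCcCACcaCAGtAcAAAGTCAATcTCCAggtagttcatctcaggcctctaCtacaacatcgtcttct
Muc13 unit 3: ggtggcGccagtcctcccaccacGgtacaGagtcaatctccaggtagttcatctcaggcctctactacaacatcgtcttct
Muc13 unit 4: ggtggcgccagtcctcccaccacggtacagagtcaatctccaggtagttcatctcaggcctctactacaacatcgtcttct

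The repeat of Muc4 was longer. Units of 372 bases, or 124 codons, were cut from coding base 1801, where the best-matching window began. The second unit differed from the first in 20 bases, the third from the second in 29 and the fourth from the third in 78. The first 150 bases of units 1 and 2 are shown, with the 5 differing bases of unit 2 in capitals.
Muc4 unit 1: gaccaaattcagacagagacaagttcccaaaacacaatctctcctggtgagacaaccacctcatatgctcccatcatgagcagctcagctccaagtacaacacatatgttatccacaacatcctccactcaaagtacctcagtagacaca
Muc4 unit 2: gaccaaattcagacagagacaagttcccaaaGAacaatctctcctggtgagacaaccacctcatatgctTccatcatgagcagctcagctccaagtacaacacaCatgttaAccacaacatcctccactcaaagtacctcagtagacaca

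Of all 50-base stretches of the longest transcript, 14.2% in Muc13, 10.1% in Muc4, 1.28% in Muc1 and 0% in Muc20 occurred more than once within the same transcript. Whether reads from such stretches were counted depends on the counting, which was the same for SI and COL libraries.

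The genes lie in 2 places of the mouse genome (GRCm38, GENCODE vM21). Muc1 (ENSMUSG00000042784) is on chr3:89229057-89233381 on the plus strand, with 7 exons when its transcripts are merged. The other 3 genes are on chromosome 16. Muc4 (ENSMUSG00000079620) occupies chr16:32735886-32782391 on the plus strand with 27 merged exons, and Muc13 (ENSMUSG00000022824) occupies chr16:33794037-33819934 on the same strand with 13, its start 1058.2 kb from that of Muc4. Muc20 (ENSMUSG00000035638), on chr16:32777419-32797435, runs on the minus strand and overlaps the 3′ part of Muc4. The overlap covered 627 exon bases, which are 5.33% of the exon bases of Muc4 and 15.6% of those of Muc20, and came from 1 of the 2 Muc20 transcripts. The use of the strand in counting is not given in the sources used here, so reads from these bases cannot be credited to either gene with certainty. Muc13 shares 184 exon bases, 6.06% of its own, with the antisense gene Gm15657.

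**Figure D1:**
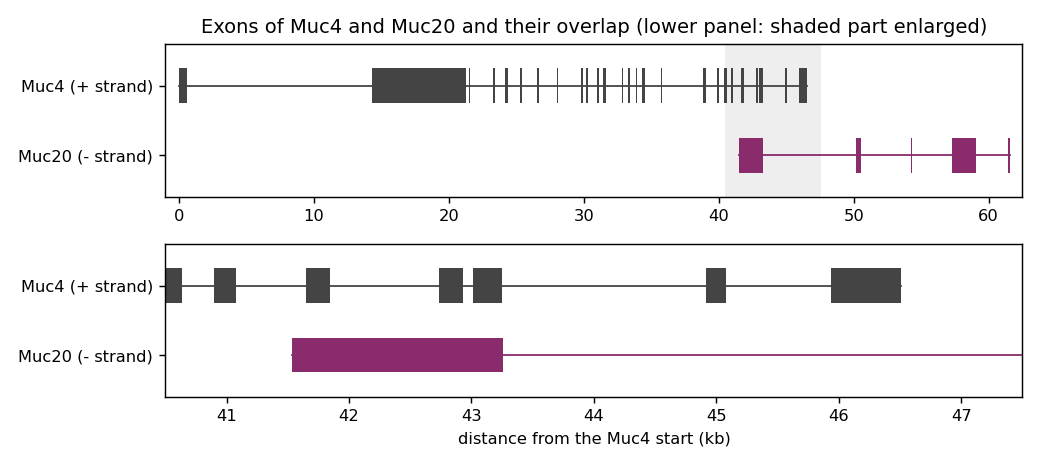
Merged exons (boxes) of Muc4 on the plus strand and Muc20 on the minus strand, plotted against the distance from the Muc4 start in kb, with the overlap enlarged in the lower panel. The 627 shared exon bases lie in the last exon of 1 Muc20 transcript and in 3 exons of Muc4.

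The promoters of the 2 genes whose SI and COL libraries did not overlap are given from 250 bases before to 50 bases after the start (RefSeq, GRCm38.p6, both plus strand). All 4 genes matched the RefSeq promoter table, Muc13 with 2 starts. In all, 6 motifs were searched on both strands, and capitals mark their matches, none of which overlap here. The letters TATAAA of the box that positions the polymerase occurred in 13.6% of 32851 promoters. The letters GGGCGG, bound by Sp and Klf factors, occurred in 35.7% and the Cdx letters TTTATG in 11.9%. Part of an Hnf1 site, GTTAAT, was found in 7.1%, the Gata factor letters AGATAA in 11.2% and the Stat letters TTCNNNGAA in 8.3%.
Muc1, chr3:89228806-89229105: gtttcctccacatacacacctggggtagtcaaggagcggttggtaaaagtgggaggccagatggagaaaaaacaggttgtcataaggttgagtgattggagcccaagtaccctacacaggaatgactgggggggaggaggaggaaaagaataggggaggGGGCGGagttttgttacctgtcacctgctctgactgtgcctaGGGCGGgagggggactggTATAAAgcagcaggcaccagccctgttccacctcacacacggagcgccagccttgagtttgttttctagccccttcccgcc
Muc13, chr16:33793787-33794086: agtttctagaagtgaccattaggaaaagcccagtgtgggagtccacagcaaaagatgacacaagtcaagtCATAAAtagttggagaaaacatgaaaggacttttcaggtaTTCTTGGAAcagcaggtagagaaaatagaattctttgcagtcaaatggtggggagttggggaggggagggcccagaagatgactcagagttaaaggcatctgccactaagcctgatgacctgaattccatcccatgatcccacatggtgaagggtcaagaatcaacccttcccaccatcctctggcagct

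Muc1 had TATAAA from -31 to -26 and 2 matches of GGGCGG. The first Muc13 start had neither, and held a Cdx match on the minus strand from -180 to -175 and a Stat match from -140 to -132. The second Muc13 start, not printed, held the Hnf1 letters from -61 to -56. Counts per gene do not tell which of the 2 starts was used in crypts. The Muc4 promoter held TATAAA from -36 to -31 and 2 Gata matches on the minus strand. Muc20 had no match to any of the 6. These are matches of letters and say nothing of binding.

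The libraries held 21156329 to 30368676 counts in SI and 15969428 to 32908060 in COL. Levels are given as CPM, the counts per 1000000 counts of the TMM-scaled library total after TMM scaling. In SI mice 2 and 3 and COL mice 1 and 2 the mitochondrially encoded genes took 22.7% to 50.8% of the counts, in the other 4 libraries 4.83% to 7.35%. Epcam, Cdh1 and Krt8 were present in every library, the 8 SI enterocyte markers summed to 59500 to 140400 CPM in SI against 246 to 878 in COL, and the 5 Paneth cell markers to 557.5 to 3917 against 6.29 to 20.1. Within SI, mouse 1 held the highest sum of enterocyte markers and the lowest sums of Paneth, stem and proliferating cell markers.

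Muc13 was higher in SI crypts and Muc1 was higher in COL crypts, whereas Muc4 and Muc20 were lower in SI in all 4 mice without passing the threshold in the unpaired test. Thus 2 of the 4 genes passed an adjusted p of 0.05 (edgeR's quasi-likelihood test, Benjamini-Hochberg over 14491 genes), 1 in each direction, and in the same 2 genes the SI and COL libraries did not overlap. Of all genes tested, 28.4% passed, 15.5% as higher in SI and 12.9% as higher in COL, and 33.5% did not overlap, 17.8% with SI above and 15.7% with COL above. When the donor mouse was added as a block, all 4 passed, as did 28.1% of all genes. Muc1 and Muc20 were at or near 0 in SI and entered the test through their COL libraries, so the counts of 2 and 4 are given as descriptions.

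**Figure D2:**
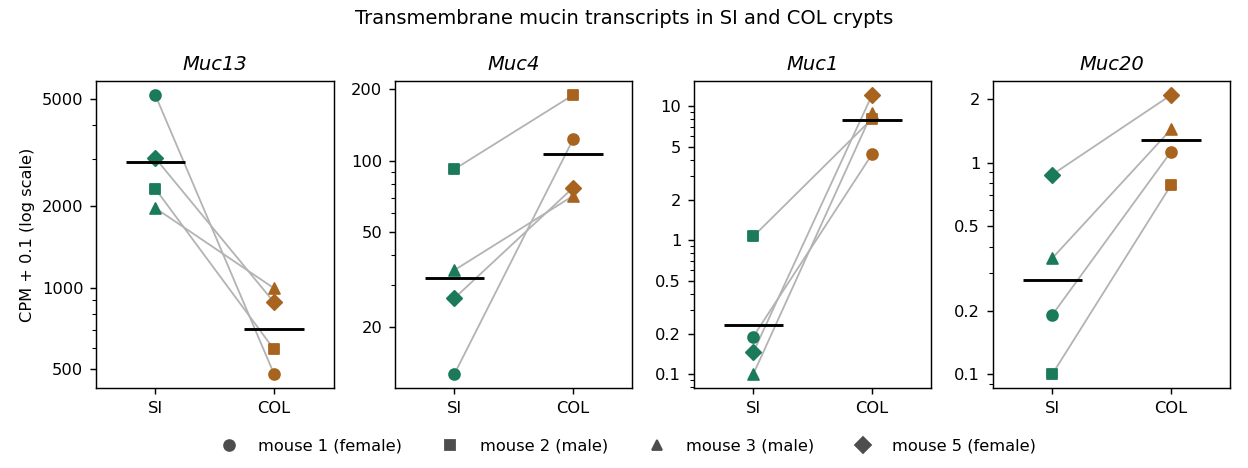
CPM + 0.1 on a log axis for each of the 4 genes in the 4 SI and 4 COL libraries, with symbols for the donor mice, grey lines joining the libraries of a mouse and black bars at the mean of the log values. For Muc13 each mouse has its SI library above its COL library, and for Muc4, Muc1 and Muc20 its COL library above its SI library.

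Muc13, the most abundant of the 4, measured 5164, 2322, 1971 and 3016 CPM in the SI libraries of mice 1, 2, 3 and 5. In COL it measured 478, 590, 994 and 882 CPM. Every SI library lay above every COL library. The means were 3118 ± 1431 CPM in SI and 736 ± 242 in COL (SD, n = 4), a log2 fold change of 2.08 (SE 0.49, edgeR adjusted p = 0.00839), or 4.24-fold. The exact two-sided permutation test gave p = 0.0286, the smallest that 4 against 4 libraries allow. Within mice 1, 2, 3 and 5 the log2 difference was 3.43, 1.98, 0.99 and 1.77. It was therefore positive in each mouse and largest in mouse 1, whose SI library held the most enterocyte marker RNA, 140400 CPM. The SI library of mouse 5 library, with the next highest Muc13, held 107800 CPM of these markers, and those of mice 2 and 3 held 59500 and 60900. The pairs also differed in mitochondrial share. In mouse 1 it was 4.84% in SI and 26.9% in COL, and in mouse 3, with the smallest Muc13 difference, 22.7% and 6.94%. The part of the enterocyte markers or of the mitochondrial share in the Muc13 difference was not tested. As a difference of mean log2 CPM it was 2.01 among libraries of high mitochondrial share and 2.08 among those of low share.

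Muc1 was nearly absent from SI libraries, with 2, 16, 0 and 1 counts in mice 1, 2, 3 and 5, or 0.0906, 0.967, 0 and 0.0458 CPM. The COL libraries held 146, 128, 330 and 574 counts, or 4.28, 7.96, 8.83 and 12.0 CPM. No SI library reached the lowest COL library. The 0 counts of the mouse 3 SI library allow a level of up to 0.152 CPM (3 counts, counting error only). The log2 fold change was -4.97 (SE 0.97, edgeR adjusted p = 0.00273), and the exact permutation test gave p = 0.0286. Over the summed counts, 19 in SI and 1178 in COL, the level in COL was 36.7 times that in SI (95% exact interval 23.4 to 61.3, counting error only). Muc1 passed the count filter through its COL libraries, so a gene of this kind could hardly pass it without a difference. The library of mouse 2 gave 16 of the 19 SI counts. Without it the log2 fold change was -7.32 (edgeR adjusted p = 0.000105). Among the 4 libraries of high mitochondrial share alone, which include it, Muc1 missed the threshold (log2 fold change -3.76, edgeR adjusted p = 0.0899).

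Muc4 measured 12.6, 91.9, 34.5 and 26.3 CPM in SI of mice 1, 2, 3 and 5. In COL it measured 122.8, 188.8, 71.0 and 76.9 CPM. The ranges overlapped, because the SI library of mouse 2 lay above the COL libraries of mice 3 and 5. Means were 41.3 ± 34.9 CPM in SI and 115 ± 54.4 in COL (SD, n = 4). The log2 fold change was -1.48 (SE 0.55) and missed the threshold with an edgeR adjusted p of 0.0680, with an exact permutation p of 0.0857. Within each mouse, however, SI was lower than COL, with SI minus COL log2 differences of -3.28, -1.04, -1.04 and -1.54. With the mouse as a block the log2 fold change was -1.70 (edgeR adjusted p = 0.0157). Leaving out the mouse 2 SI library from the unpaired fit gave -2.21 (edgeR adjusted p = 0.00583), whereas leaving out any other library gave values from -1.64 to -1.15 that missed the threshold.

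Muc20 was close to the limit of detection and, like Muc1, passed the count filter through its COL libraries. It had 2, 0, 5 and 17 counts in SI (0.0906, 0, 0.254 and 0.778 CPM) and 35, 11, 50 and 95 counts in COL (1.03, 0.684, 1.34 and 1.99 CPM) for mice 1, 2, 3 and 5. The SI library of mouse 5 lay above the COL library of mouse 2, so the groups overlapped, although COL was higher within each of the 4 mice. The 0 counts in the mouse 2 SI library allow up to 0.181 CPM. The log2 fold change was -2.13 (SE 0.94, edgeR adjusted p = 0.111), and the exact permutation p was 0.0571. With the mouse as a block it was -2.72 with an edgeR adjusted p of 0.0499, and without the mouse 5 SI library -3.38 with 0.0400. Leaving out any of the other 7 libraries gave -2.27 to -1.73, with edgeR adjusted p from 0.113 to 0.258. The summed counts, 24 against 191, gave a COL level 4.72 times that in SI (95% exact interval 3.08 to 7.54, counting error only). Reads in the 15.6% of its exon bases that it shares with Muc4 may belong to either gene.

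Muc13 and Muc4 were ordered in opposite ways by the mitochondrial share within both tissues. In SI, Muc4 was higher in both libraries of high share (91.9 and 34.5 CPM) than in those of low share (12.6 and 26.3), and in COL likewise (122.8 and 188.8 against 71.0 and 76.9). Muc13 was lower in both high-share libraries of SI (2322 and 1971 CPM against 5164 and 3016) and of COL (478 and 590 against 994 and 882). Each tissue has 2 libraries of either kind, and within them the SI minus COL log2 fold change of Muc4 in edgeR was -1.38 at high share and -1.93 at low share. In SI the high-share libraries came from the male mice 2 and 3 and the low-share ones from the female mice 1 and 5. Share and sex therefore cannot be told apart in SI. The summed markers of 2 absorptive cell types were lower at high share, as Muc13 was. The enterocyte markers summed to 59500 and 60900 CPM in the SI libraries of high share against 140400 and 107800, and the surface colonocyte markers to 6604 and 5219 CPM in the COL libraries of high share against 33370 and 17980. The largest single markers in these sums were Apoa1 in SI and Car1 in COL, and the other markers did not all follow. In COL, Aqp8 measured 106.1 and 540.7 CPM at high share against 345.9 and 373.1. In SI, Sis measured 2163 and 3374 CPM at high share against 2049 and 2235. Other marker sums did not all go this way. Those of Paneth cells in SI were 3917 and 2549 CPM at high share against 557.5 and 1696. Those of goblet cells in COL were 24250 and 12790 CPM at high share against 16450 and 21620. The part of RNA quality or of the cell mixture in these orders was not tested.

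Levels of different genes were compared per kb of merged exon. In SI, Muc13 stood at 1026 ± 471 CPM per kb, Muc4 at 3.51 ± 2.97, Muc1 at 0.118 ± 0.197 and Muc20 at 0.0697 ± 0.0864 (SD, n = 4). The last 2 overlapped. In COL the order was the same, with 242 ± 79.6 for Muc13, 9.77 ± 4.63 for Muc4, 3.53 ± 1.36 for Muc1 and 0.313 ± 0.138 for Muc20, and no neighbours in this order overlapped. Of the summed level of the 4 genes, Muc13 made up 99.5% ± 0.435 in SI and 94.1% ± 2.87 in COL. Muc4 made up 0.437% ± 0.415 of the sum in SI and 4.40% ± 2.86 in COL. Muc1 made up 0.0144% ± 0.026 and 1.37% ± 0.318, and Muc20 0.0076% ± 0.00897 and 0.123% ± 0.0403. The small SI shares rest on single libraries. Without the SI library of mouse 2 those of Muc1 and Muc4 were 0.00141% and 0.246%, and without that of mouse 5 the share of Muc20 was 0.00366%. Without the correction for length Muc4 made up 1.66% in SI and 14.7% in COL. Among all tested genes with a length, Muc13 exceeded 99.6% in SI and 99.0% in COL, Muc4 57.4% and 80.3%, Muc1 7.95% and 58.6%, and Muc20 4.86% and 12.0%. The sum itself was 1030 ± 469 CPM per kb in SI and 256 ± 77.4 in COL.

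Ratios within a library need no scaling between libraries. Per kb, Muc13 exceeded Muc4 by 98 to 1593 times in SI and by 12.1 to 54.2 times in COL. Against Muc3, another transmembrane mucin of the intestinal brush border, Muc13 was 2.33 to 9.37 times as high in every SI library and 0.221 to 0.588 times as high in every COL library. The top place per kb was thus held by Muc13 in SI and by Muc3 in COL. These pairs were picked after their values were seen, so no test is given.

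**Figure D3:**
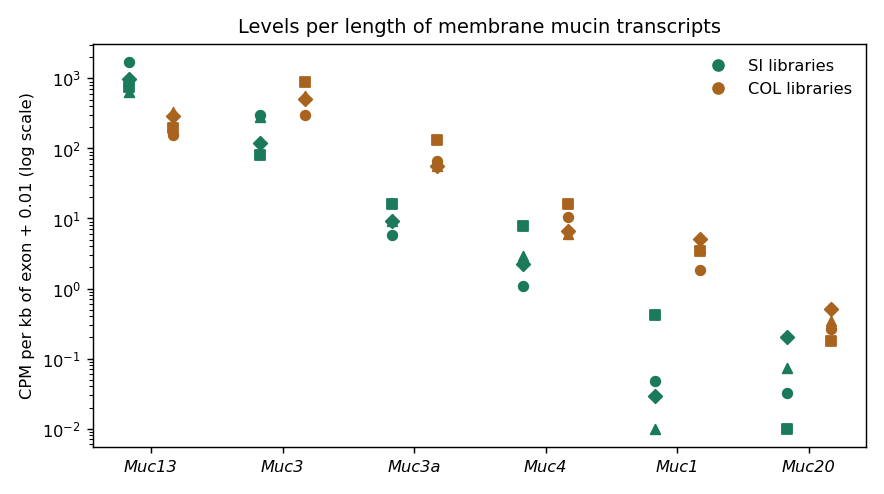
CPM per kb of merged exon, plus 0.01, on a log axis for 6 membrane mucins in the 4 SI and 4 COL libraries, with the same symbols for the donor mice as in the plot of CPM by mouse. Muc13 lies above Muc3 in all SI libraries, and below it in the COL library of each mouse.

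Among the 10 other membrane mucins listed, 6 were matched in the files and 3 passed the filter. None was higher in SI and 2 were higher in COL. Over all genes tested, 15.5% were higher in SI and 12.9% in COL, shares that also stand beside the other counts given below. Muc3 was at 379 ± 214 CPM in SI and 1093 ± 465 in COL (log2 fold change -1.53, SE 0.51, edgeR adjusted p = 0.0458), and with the mouse as a block its adjusted p was 0.0870. Muc3a was at 18.99 ± 8.24 CPM in SI and 146 ± 70.2 in COL (-2.95, SE 0.42, edgeR adjusted p = 0.000347). Cd164, a small sialomucin of many cell types, measured 174.5 ± 55.4 and 151 ± 53.3 CPM and did not pass. Muc15, Emcn and Mcam were too low to be tested, and Muc12, Muc16, Muc17 and Muc21 were not matched. Of the secreted mucins, Muc2, the gel-forming mucin of goblet cells, was higher in COL (625 ± 295 against 10670 ± 3959 CPM, log2 fold change -4.10, edgeR adjusted p = 0.000676) and Muc6 did not pass. The 8 goblet cell markers, Muc2 among them, summed to 2873 to 10950 CPM in SI and to 12790 to 24250 in COL, with 4 higher in COL (Muc2, Agr2, Spink4 and Spdef). The other 4 did not pass, with log2 fold changes of 0.86 for Tff3, 0.66 for Fcgbp, 0.88 for Zg16 and -0.79 for Clca1. Without Muc2 the goblet sums overlapped, at 2483 to 9965 CPM in SI and 4900 to 10730 in COL. The part of goblet cells in the differences of Muc1, Muc4 and Muc20 was not tested. Over the 5 tuft cell markers no gene passed, with sums of 48.1 to 89.2 CPM in SI and 44.0 to 62.7 in COL. The 5 surface colonocyte markers summed to 5088 to 11420 CPM in SI and 5219 to 33370 in COL. Car1, Aqp8 and Car4 were higher in COL (log2 fold changes -6.75, -5.33 and -2.58), Krt20 was higher in SI (3.06) and Slc26a3 did not pass. Without Krt20, which made up most of the sum in SI, the sums were 304 to 695 CPM in SI and 4486 to 31750 in COL. That reduced sum was mostly Car1 in COL, and with Krt20 the SI and COL sums overlapped. Car1, Aqp8 and Car4 were thus higher in COL, as Muc1 was, but the markers as a set were not. The part of surface colonocytes in the mucin differences was not tested. Immune cell markers, which include those of lymphocytes within the epithelium, summed to 38.7 to 103 CPM in SI and 11.0 to 37.0 in COL with Cd3e and Cd8a higher in SI, and those of stroma and vessels to 3.16 to 10.03 and 5.19 to 15.8.

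**Figure D4:**
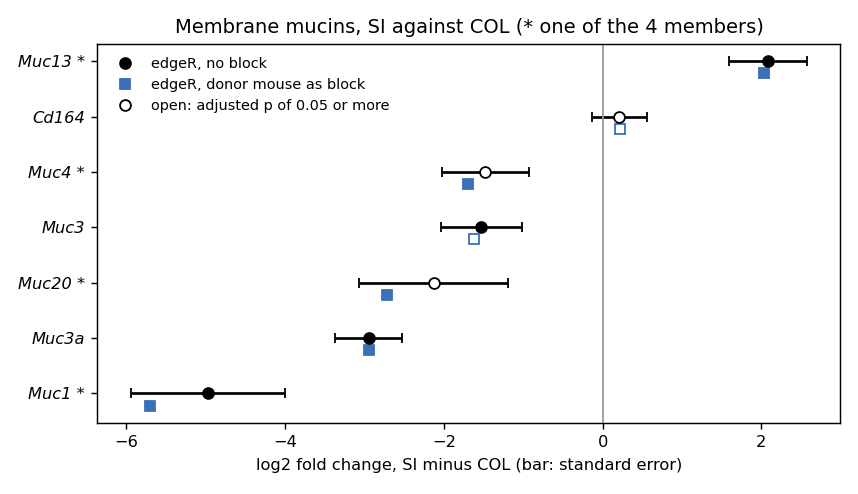
Log2 fold change, SI minus COL, of the 7 membrane mucins tested, with the standard error of the unpaired edgeR model (black) and the value once the mouse entered as a block (blue); open symbols did not pass an adjusted p of 0.05. Muc13 at 2.08 is the only one of the 4 members above 0, and Muc4 and Muc20 are open in black and filled in blue.

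Proteins of the ezrin, radixin and moesin family and PDZ scaffolds tie apical membrane proteins to the actin core of microvilli. Of the 6 genes listed for them, 3 were higher in SI, 1 was higher in COL and 2 did not pass. Their median log2 fold change was 2.04, against -0.09 over all genes tested, of which 28.4% passed. Ezr, which links membrane proteins to actin, had a log2 fold change of 2.59, its partner Slc9a3r1 of 3.53 and the brush border scaffold Pdzk1 of 10.25. Pdzk1 was near 0 in COL (0.384 ± 0.511 CPM), so that value depends on the fit. Slc9a3r2, the paralogue of Slc9a3r1, went the other way with -4.23, but was near 0 in SI (0.388 ± 0.242 CPM). Pdzk1 passed the count filter through its SI libraries and Slc9a3r2 through its COL libraries, so the counts of 3 and 1 are given as descriptions.

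Among 10 receptors and signalling partners, 3 were higher in SI and none was higher in COL (median 0.68). Of all genes tested, 28.4% passed, 15.5% as higher in SI and 12.9% as higher in COL. With the mouse as a block 2 of the 10 passed, and 0 in the test against a log2 change of 1. Met, the receptor that MUC20 was described to bind, measured 21.5 ± 4.26 CPM in SI and 12.0 ± 1.53 in COL (log2 fold change 0.84, edgeR adjusted p = 0.0276). Src had a log2 fold change of 1.01, and Erbb3 of 1.37 with an edgeR adjusted p of 0.0317 that became 0.0774 with the mouse as a block. Erbb2, the receptor bound by MUC4, measured 100.1 ± 21.3 CPM in SI and 101 ± 27.04 in COL and did not pass. Of the 4 sheddases, which release mucin ectodomains, Adam9 (-1.23) and Mmp14 (-1.86) were higher in COL, and Adam10 and Adam17 did not pass.

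Of the 12 enzymes that start or build the cores of O-glycans, 11 were tested, 8 were higher in COL and 2 in SI (median log2 fold change -1.14). Over all genes tested, 12.9% were higher in COL and 15.5% in SI. The 8 were the transferases Galnt3, Galnt4, Galnt7 and Galnt12, which attach the first sugar, the core 1 synthase C1galt1, the branching enzymes Gcnt1 and Gcnt3, and B3gnt6, the core 3 synthase. Galnt12 measured 5.62 ± 1.49 CPM in SI and 48.2 ± 12.8 in COL (-3.10), and B3gnt6 measured 1.62 ± 1.02 and 22.2 ± 8.10 (-3.77). Galnt1 (1.98) and Gcnt4 (3.52) went the other way.

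**Figure D5:**
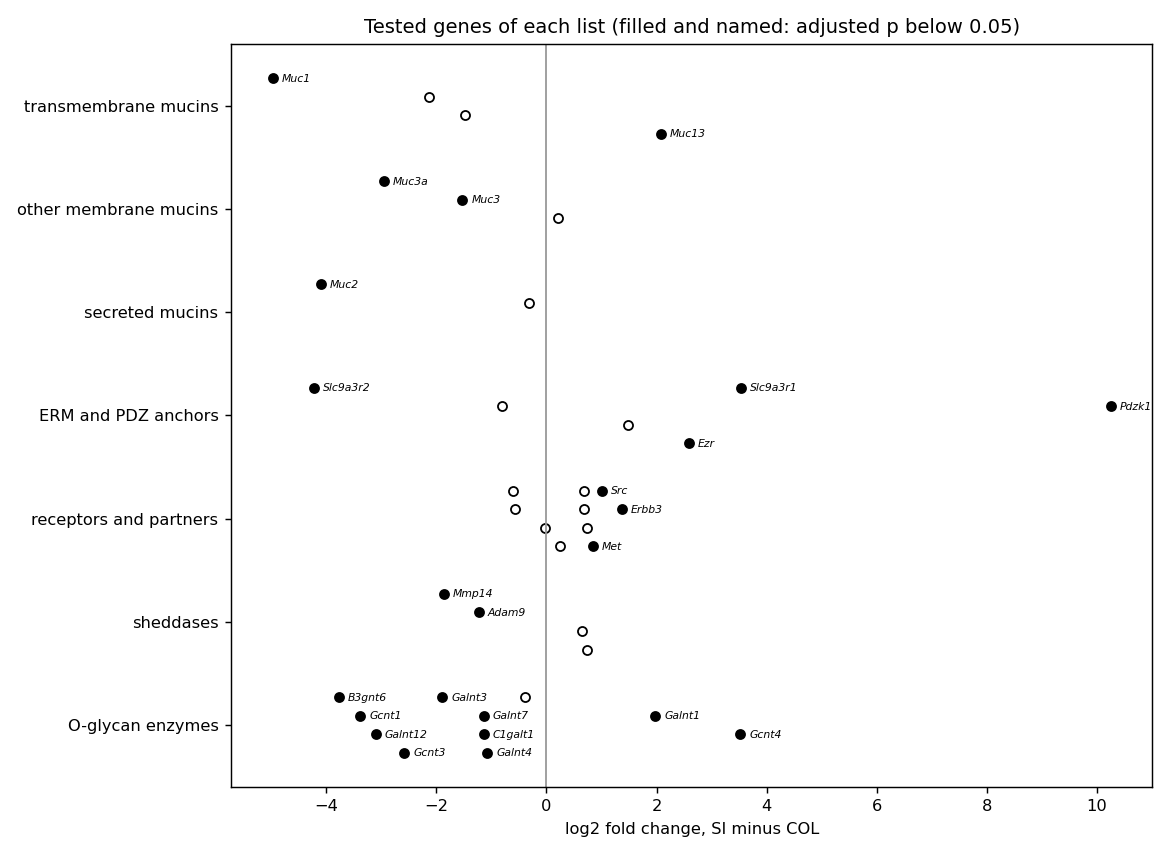
Log2 fold change, SI minus COL, of every tested gene of the 4 transmembrane mucins and of 6 lists around them; filled symbols with names passed an adjusted p of 0.05 and open ones did not. In the list of O-glycan enzymes 8 filled symbols lie below 0 and 2 above.

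For the interaction of tissue and sex, with 2 mice of each sex, no gene of 14491 passed in edgeR (0%), while 761 had an unadjusted p below 0.05. The interaction was also called for 0 genes with the mouse as a block (869 unadjusted), with limma-voom (806) and with scaling by library size (926). The male minus female difference in the log2 change was 2.66 for Muc1 (SE 1.81), 1.32 for Muc4 (SE 0.90), -1.15 for Muc13 (SE 1.01) and -1.12 for Muc20 (SE 1.88). In SI the male libraries were those of high mitochondrial share, so sex and share cannot be told apart there. Next to Muc1, with its end 795 bases away, Trim46 was higher in COL as well (1.43 ± 1.21 CPM in SI and 19.1 ± 7.28 in COL, log2 fold change -3.75, edgeR adjusted p = 0.00321). Trim46 held 1 to 57 counts in SI and 225 to 1314 in COL and, like Muc1, passed the count filter through its COL libraries. Tnk2, the neighbour of Muc4, was also higher in COL (-1.08, edgeR adjusted p = 0.0194). Heg1 and Itgb5 on either side of Muc13, Smbd1 beside Muc20 and the antisense gene Gm15657 did not pass, and Thbs3 was too low to be tested.

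For each gene the profile over the 8 libraries was set against that of 7801 genes with a mean log2 CPM of at least 3. The most similar were Extl3, Tmem164 and Slc17a9 for Muc1 (Pearson r 0.99, 0.99 and 0.98), Cntrl, Kif21a and Bbx for Muc4 (1.00, 0.99 and 0.99), Tmc5, Tbck and Ticam1 for Muc13 (1.00, 0.99 and 0.99), and Spry2, Tor3a and Mpst for Muc20 (0.95, 0.94 and 0.94). After the tissue means had been subtracted, Extl3 still led for Muc1 (0.96), Cdk5rap2 for Muc4 (1.00), Vps72 for Muc13 (0.99) and Svbp for Muc20 (0.98). The 8 points are pairs from 4 mice and share tissue, depth and mitochondrial share, so the values describe these libraries only.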

How the data were processed

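The authors sequenced RNA of freshly isolated crypts. Reads were trimmed with Trimmomatic 0.36 and aligned and counted per gene with STAR 2.5.2b, versions as in the submitters' processing notes, which name mm10 and mm9; the methods name mm10. The deposited values are whole-number counts per Ensembl gene and library, without normalization. The gene annotation they used and whether strand was considered are not given in the sources used here. No column was left out (0 unused), and 563 of 45706 genes had no match in GENCODE vM21.

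Counts were tested with edgeR 4.0.16 (R 4.3.3; glmQLFit and glmQLFTest, TMM) of SI against COL without a donor term, as the methods name none. Genes were kept by filterByExpr (about 10 counts in at least 4 libraries, 15 in all), and p-values were adjusted by Benjamini-Hochberg over 14491 genes. Standard errors came from the coefficient and the F statistic. The exact permutation tests were two-sided over 70 assignments of log2(CPM + 0.1). For correlations, CPM values were taken as log2 after adding a prior count of 2. The scripts were tested on simulated counts. Alternatives were library size and RLE scaling, DESeq2 1.42.0, limma 3.58.1 (voom; the methods name limma), the donor block, other filters, a test against a log2 change of 1, single libraries left out, libraries apart by mitochondrial share (above or below 15%) and 15 mitochondrial genes removed.

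SI and COL libraries of the same number come from the same mouse per the labels, which pairs them. In mice 1 and 3 the pair, and so the donor block, joins a library of high with one of low mitochondrial share. The deviations from the tissue means correlated at -0.24, 0.39, -0.08 and 0.33 for mice 1, 2, 3 and 5. Replicates of a tissue differed well beyond counting noise, with a chi-square per gene of at least 91.7. The 4 members and the lists were chosen with earlier results of these data known. The members are named with all values, list genes where they passed or define a list, and for each member the direct neighbours and the 3 genes of highest correlation. Counting intervals and limits cover counting error only, since reads are not independent molecules.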

Additional observations from a re-analysis of the deposited data

Results flagged for a closer look

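Of 18 sets of 4 libraries examined by Dixon's test (levels and pool shares of the 4 genes and their sum, in SI and in COL), 1 had a library far from the others, and chance gives about 1 in 20. The share of Muc1 in the summed level of the 4 transmembrane mucins was 0.0533% in the SI library of mouse 2 and at most 0.00227% in the other SI libraries, a gap of 0.96 of the range and above the 95% critical value for 4 samples. It rests on 16 counts of Muc1. In the same library Muc4 was highest among the SI libraries (91.9 CPM) and the markers of stroma and vessels summed to 10.03 CPM, against 3.16 to 5.25 in the other SI libraries. The part of these in the Muc1 counts was not tested.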

How the results depend on the processing

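No log2 fold change of the 4 genes reversed in 20 or 21 alternatives each. The donor mouse as a block, which the labels give, moved Muc4 to -1.70 and Muc20 to -2.72 in edgeR (-1.75 and -2.43 in voom), both past the threshold, and with it 4 members passed in either tool. In edgeR it ended the calls of Muc3 and Erbb3, and in neither tool did it change that of Muc1 or Muc13. Muc4 also passed with scaling by library size (-2.14), RLE factors (-1.56), DESeq2 (-1.56), voom (-1.80), no filter (-1.58), low mitochondrial share (-1.93) and without mitochondrial genes (-1.63) or without the 18 genes over 1% of a library (-1.63, chosen after seeing the data). Muc20 also passed with library size (-2.90) and voom (-2.90). Muc13 missed with library size (1.31, adjusted p = 0.0582). That scaling shifted the median of all genes to -0.82 from -0.09 and the share of calls higher in SI to 18.9% from 54.7%. Relative to the median the 4 genes hardly moved (Muc4 -1.32 against -1.39 with TMM, Muc20 -2.08 against -2.04, Muc13 2.13 against 2.17), so these 3 changes of call go with the shift. Muc1 missed at high mitochondrial share (-3.76). The number of members past the threshold was 3 with library size, RLE, DESeq2, no filter, low mitochondrial share and either set of genes removed, 4 with voom, 1 with at least 10 counts in every library, where Muc1 and Muc20 were not fitted, and 1 at high mitochondrial share, against 2. The share of all genes that passed was 28.4% and became 40.7% with library size, 35.3% with DESeq2, 32.4% with voom and 32.5% with voom and the block, 37.0% at low and 14.8% at high mitochondrial share, and 13.7% without a filter, against 28.1% to 30.1% for the block in edgeR, RLE, the stricter filter and the genes removed. Leaving out single libraries gave -7.32 to -4.54 for Muc1, -2.21 to -1.15 for Muc4, 1.74 to 2.27 for Muc13, -3.38 to -1.73 for Muc20, and 2 to 3 members. The genes past the threshold numbered 4116, 2072 in the test against a log2 change of 1 and 2264 at high mitochondrial share. Without a length correction the shares of the pool were 0.943% for Muc1 in COL, 1.66% and 14.7% for Muc4 in SI and COL, and 98.3% and 84.2% for Muc13. Muc1 and Muc20 in SI are limited by depth, with 19 and 24 counts over 4 libraries.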
